A study of Mus musculus with 8 samples.

Results

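The genes described here were those of the glial cell line-derived neurotrophic factor (GDNF) family: the receptor tyrosine kinase gene Ret, the co-receptor genes Gfra1, Gfra2 and Gfra3, and the ligand genes Gdnf, Nrtn and Artn. The 7 genes were chosen by symbol, without use of their measured values, from 22609 genes counted in each library. The cells were sensory neurons of the mouse, whose bodies lie in the dorsal root ganglia (DRG) along the spinal cord, and their RNA was sequenced in 4 female and 4 male libraries. The neurons had taken up WGA-488, a fluorescent lectin carried back along axons, from injections into hindpaw skin and thigh muscle, and were sorted as viable WGA+ cells. All animals were naïve adult C57BL/6J mice, and the females were in estrus. Each library came from lumbar ganglia of both sides, so cells from skin and muscle were mixed, and a wide sorting nozzle was used so that larger neurons were not lost. The comparison asked whether the levels of these genes differed between the sexes.

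GDNF family ligands are secreted survival factors for neurons. Each binds a GFRα co-receptor that is anchored to the outer face of the membrane, and the complex then recruits RET, which carries the kinase that signals into the cell. GDNF prefers GFRα1, neurturin (from Nrtn) prefers GFRα2, artemin (from Artn) prefers GFRα3, and persephin (from Pspn) prefers GFRα4. In DRG, RET marks most nonpeptidergic pain- and itch-sensing neurons and a group of large mechanoreceptors, GFRα3 is found mainly in peptidergic neurons, and the ligands are made largely by the tissues that the axons reach.

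The sequences that carry the difference between the RET forms are shown first, because the deposited values merge those forms into 1 count per gene. Ret lies on the minus strand of chromosome 6, from 118101766 to 118147762 (mm9). In the GENCODE annotation of NCBIM37, its coding transcripts Ret-201 and Ret-202 share their first 3191 coding bases and then end differently. Ret-201 has 1116 codons and Ret-202 has 1074, both with the stop codon. These are the long and the short form of RET, which differ in the tail of the protein inside the cell. The last 30 shared coding bases are printed in lower case, and the bases found in only that form in capitals, at chr6:118103871-118104027 for Ret-201 and chr6:118105274-118105304 for Ret-202, 5′ to 3′ on the gene's strand.
Ret-201: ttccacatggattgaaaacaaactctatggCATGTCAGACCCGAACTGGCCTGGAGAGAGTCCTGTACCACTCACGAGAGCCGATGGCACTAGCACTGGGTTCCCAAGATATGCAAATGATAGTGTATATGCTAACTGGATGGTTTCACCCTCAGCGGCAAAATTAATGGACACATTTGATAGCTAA
Ret-202: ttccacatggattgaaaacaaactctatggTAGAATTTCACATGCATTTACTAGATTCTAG
The share of the forms was not analysed here, because both add to the same gene count.

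A second sequence bears on whether reads of related co-receptors can be mixed up. Transcripts of the 7 genes and of Pspn and Gfra4 were compared in 36 gene pairs. The longest run of bases shared by different genes had 28 bases, in the coding parts of Gfra1 (chr19:58527704-58527731, minus strand) and Gfra2 (chr14:71295813-71295840, plus strand), and is printed in lower case on the strand of the genes.
Gfra1 and Gfra2: actgccgctgcaagcggggcatgaagaa
The reads were 50 bases long, and 0 windows of that length were shared by different genes of the family. In every other pair the longest shared run had at most 17 bases. A read that matched the annotated transcripts exactly along its whole length could therefore be placed on only 1 of these genes. Gfra1 also shares 416 exon bases with Gm16277 on the other strand, and reads of those genes could not be told apart there.

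Levels are given as counts per 1e6 gene reads (CPM). Depth ranged from 4.80 to 7.33 M gene reads per library, so that 3 reads, taken as the floor, correspond to 0.409 to 0.625 CPM. These floors, and the Poisson intervals given for the ligands, cover counting error only, whereas the intervals of fold changes rest on the spread between libraries. The neuronal marker Tubb3 was at 5008 CPM in females and 4840 CPM in males. Female replicate 4 stood apart: its deviation from the other libraries ran with exon length across genes (Spearman's rho -0.529 over 12374 genes, against 0.0114 to 0.225 in the others), with long genes low. Results below that rest on it are therefore also given without it, which for levels per length, shares and marker counts was chosen after seeing the data.

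Ret, the signalling receptor, was the most abundant member. Its level was 944 CPM in female replicate 1, 971 in replicate 2, 905 in replicate 3 and 401 in replicate 4. Male replicates 1 to 4 had 1099, 990, 866 and 964 CPM. Female replicate 4 was the lowest of the 8 libraries, and the other females lay within the male range. The means were 805 ± 271 CPM in females and 980 ± 95.8 CPM in males (SD, n = 4 each). The log2 fold change of females over males was -0.30 ± 0.24 (SE), the edgeR adjusted p-value was 0.805, and the 95% interval of the fold ran from 0.563 to 1.17. Without female replicate 4 the log2 fold change was -0.07.

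The low Ret level of female replicate 4 was set beside the length trend of that library. Ret has 7345 exon bases. After the trend with exon length was removed from each library, an adjustment chosen after seeing the data, Ret was at 562 CPM in female replicate 4 and at 858 to 1082 CPM in the other 7 libraries. This library thus remained the lowest for Ret after the adjustment. The part of the library's length trend in the remaining gap was not tested.

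**Figure D1:**
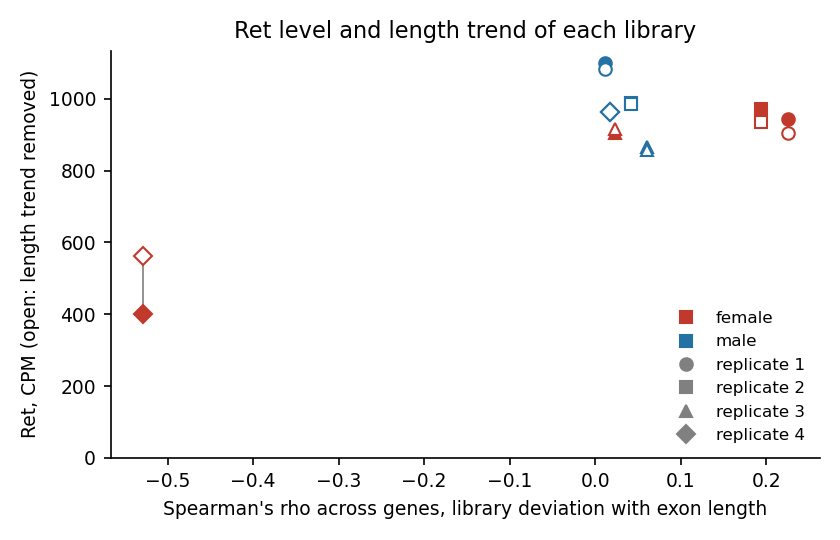
Ret level in CPM on the y axis against the Spearman's rho of each library's deviation with exon length across genes on the x axis, with filled symbols for the measured level, open symbols for the level with the length trend removed, and 1 symbol shape per replicate number. Female replicate 4 lies alone at a rho of -0.529, and its Ret level moves from 401 to 562 CPM, below the 858 CPM of the next library.

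Gfra1, the co-receptor that GDNF prefers, lies on the minus strand of chromosome 19, from 58310094 to 58530399 (mm9). Its level was 162, 183, 205 and 91.6 CPM in female replicates 1 to 4 and 180, 184, 199 and 192 CPM in male replicates 1 to 4. The males lay close together, and the females fell on both sides of them, with replicate 4 lowest and replicate 3 highest of the 8 libraries. The means were 160.5 ± 49.2 CPM in females and 189 ± 8.34 CPM in males (SD, n = 4 each). The log2 fold change was -0.25 ± 0.21 (SE), the edgeR adjusted p-value was 0.808, and the fold had a 95% interval from 0.609 to 1.16. Without female replicate 4 the log2 fold change was -0.06.

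Gfra2, the co-receptor that neurturin prefers, lies on the plus strand of chromosome 14, from 71289927 to 71379645. Female replicates 1 to 4 had 242, 226.5, 176.5 and 150.4 CPM, and male replicates 1 to 4 had 273, 215, 205 and 215 CPM. The highest value was that of male replicate 1 and the lowest that of female replicate 4, and the groups overlapped. The means were 199 ± 42.8 CPM in females and 227 ± 30.7 CPM in males (SD, n = 4 each). The log2 fold change was -0.21 ± 0.17 (SE), the edgeR adjusted p-value was 0.805, and the fold had a 95% interval from 0.670 to 1.11. Without female replicate 4 the log2 fold change was -0.10.

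Gfra3, the co-receptor that artemin prefers, lies on the minus strand of chromosome 18, from 34849557 to 34880041. Its level was 124.6, 124.4, 87.5 and 117 CPM in female replicates 1 to 4 and 186, 122, 77.3 and 107 CPM in male replicates 1 to 4. Female replicate 4 was not low for this gene, which with 1992 exon bases has the fewest exon bases of the 4 receptors. Male replicate 1 was the highest and male replicate 3 the lowest of all libraries, so that the male group spanned the female one. The log2 fold change was -0.14 ± 0.24 (SE), the edgeR adjusted p-value was 0.895, and the fold had a 95% interval from 0.632 to 1.30. It was -0.15 without female replicate 4, and without male replicate 1 its sign turned, to 0.14.

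The ligand genes were at or near the floor. Gdnf (chromosome 15, 7761011 to 7787575, plus strand) had 2, 1, 0 and 0 reads in female replicates 1 to 4, and 0, 2, 0 and 0 reads in male replicates 1 to 4. Artn (chromosome 4, 117598767 to 117602368, minus strand) had 0 reads in each of the 4 female libraries, which allows a level of up to 0.412 to 0.625 CPM per library, and 0, 2, 0 and 1 reads in male replicates 1 to 4. Neither gene reached 3 reads in any library. Pooled over 50651807 gene reads, Gdnf was at 0.0987 CPM (95% exact Poisson interval 0.0321 to 0.230) and Artn at 0.0592 CPM (0.0122 to 0.173). A sex difference of Gdnf or Artn was not detectable at this depth, with two-sided exact permutation p-values of 1.0 and 0.429.

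Nrtn (chromosome 17, 56890748 to 56896953, minus strand) was the only one of the 3 ligand genes counted above the floor. It had 2, 10, 12 and 19 reads in female replicates 1 to 4 and 12, 4, 1 and 1 reads in male replicates 1 to 4. These counts correspond to 0.275, 1.73, 2.50 and 3.20 CPM in females and 1.64, 0.594, 0.165 and 0.148 CPM in males. Female replicates 2 to 4 lay above every male library, but female replicate 1 lay among the males. The log2 fold change was 1.45 ± 0.77 (SE), the edgeR adjusted p-value was 0.731, and the fold had a 95% interval from 0.844 to 8.86. It was 1.05 without female replicate 4 and 2.52 without male replicate 1, against 1.45 with all libraries. Without male replicate 1 the remaining males had at most 0.594 CPM, and Nrtn passed the expression filter only through female libraries.

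**Figure D2:**
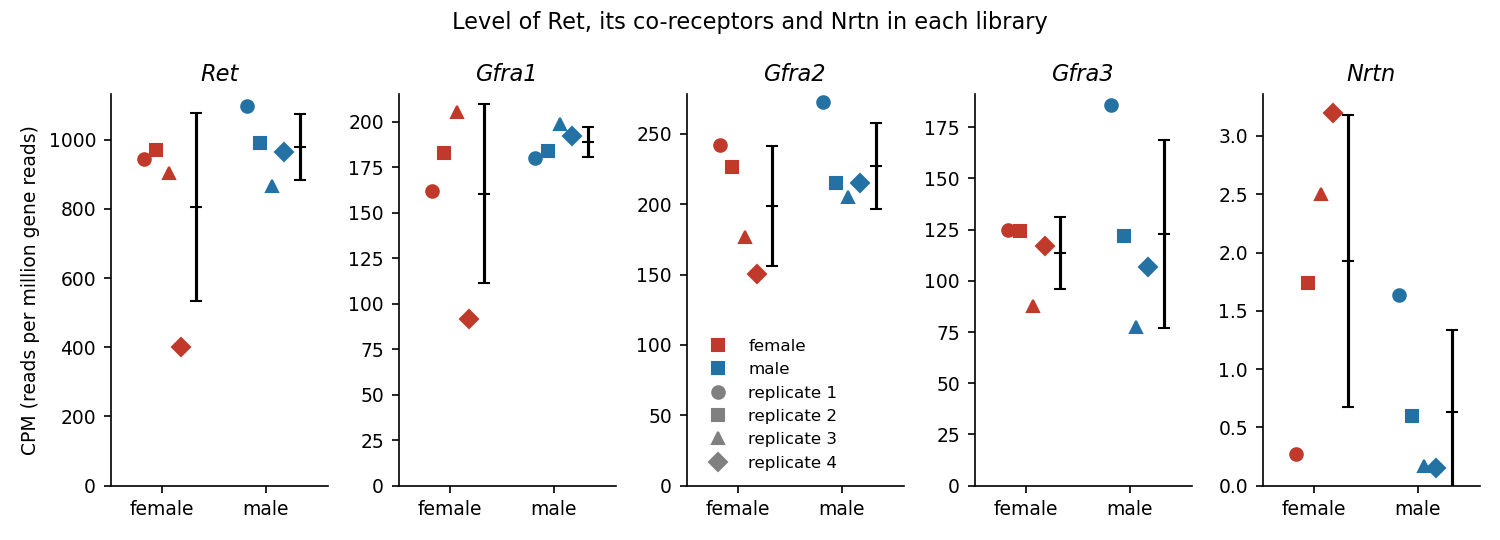
CPM of Ret, Gfra1, Gfra2, Gfra3 and Nrtn in each of the 4 female and 4 male libraries (points, 1 shape per replicate number), with the mean and SD at the right of each group; the lower bar of Nrtn in males is cut at 0. The sexes overlap in all 5 panels, and female replicate 4 is the lowest library for Ret, at 401 CPM, and for Gfra1, at 91.6 CPM.

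Of the 7 members, 5 passed the expression filter, and 0 of these had an unadjusted edgeR p-value under 0.05, against 7.11% of the 12518 genes tested (4.44% higher in females and 2.67% higher in males). Nrtn had an unadjusted p-value under 0.05 in 4 of 17 alternatives, the edgeR exact test (0.0478), the glia covariate (0.0241), and without female replicate 1 (0.0155) or male replicate 1 (0.0142), and its adjusted p-value was 0.378 or higher in each of the 17. In the fits without female replicate 1 or male replicate 1, Nrtn passed the expression filter only through female libraries. The p-values of those fits are therefore no support for a difference. At an adjusted p-value under 0.05 the members again gave 0 calls, against 0.0879% of all genes. The sexes did not overlap in CPM for 0 members, against 5.52% of all genes. The 4 receptor estimates were negative, but each interval included no difference. On simulated counts of this design the test recovered, at an adjusted p-value under 0.05, 59.5% of genes changed 2-fold and 99% of genes changed 4-fold. These counts held no library with a length trend and were drawn over genes of all levels. The rates therefore do not give the power for a single member.

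Between genes, levels were compared per exon length, as CPM per 1000 exon bases (RPKM). Ret led with 121.5 ± 28.6 RPKM (SD, n = 8), above 95.9% of the genes tested. Gfra2 followed at 60.6 ± 10.7 RPKM and Gfra3 at 59.3 ± 16.4, and these neighbours did not differ beyond their spread: Gfra2 was above Gfra3 in 6 of 8 libraries, with a ratio between 0.728 and 1.5. Gfra1 was at 31.9 ± 6.58 RPKM, below Gfra2 and Gfra3 in 8 of 8 libraries. Ret was above Gfra3 in 7 of 8 libraries, female replicate 4 being the exception with a ratio of 0.929. Without that library Ret was at 131.1 ± 10.01 RPKM, Gfra2 at 63.1 ± 8.57, Gfra3 at 59.4 ± 17.7 and Gfra1 at 34.1 ± 2.58 (SD, n = 7).

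Below the 3 abundant co-receptors stood Gfra4, the co-receptor of persephin, at 6.94 ± 2.03 RPKM (SD, n = 8). Nrtn was at 1.25 ± 1.14 RPKM, above 14.1% of the genes tested, and Gdnf and Artn were at 0.0266 and 0.0231 RPKM. With the longest coding transcript in place of all exons, Gfra1 was at 37.6 RPKM, and the order of the 7 members was the same. In all, the libraries held 71564 reads of the 4 receptor genes and 69 reads of the 3 ligand genes. The ratio of receptor to ligand reads was lowest in female replicate 4, at 237, and highest in male replicate 3, at 8160, where 1 ligand read was counted.

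**Figure D3:**
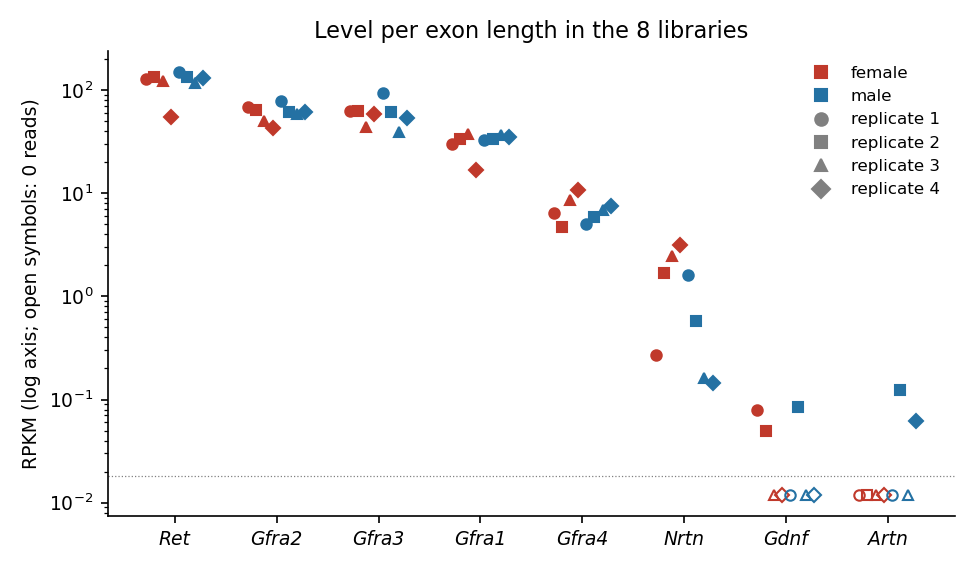
RPKM (log axis) of the 7 members and Gfra4 in the 8 libraries, coloured by sex, with 1 shape per replicate number and open symbols below the dotted line for libraries with 0 reads. Ret, Gfra2, Gfra3 and Gfra1 lie between 16.7 and 150 RPKM, and Gdnf and Artn have 0 reads in most libraries.

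The balance of the co-receptors was compared next. Per exon length, Gfra1 made up 21.3% ± 5.04 of the sum of Gfra1, Gfra2 and Gfra3 over the 8 libraries (SD, n = 8), Gfra2 39.9% ± 2.53 and Gfra3 38.8% ± 6.56. The share of Gfra2 varied least, from 36.2% to 43.7%. Gfra3 ranged from 29.1% in male replicate 3 to 49.7% in female replicate 4. Gfra1 ranged from 14.1% in female replicate 4 to 28.5% in female replicate 3. By sex, Gfra1 held 20.5% ± 6.03 in females and 22.1% ± 4.6 in males, Gfra2 39.3% ± 2.84 and 40.5% ± 2.45, and Gfra3 40.2% ± 6.83 and 37.5% ± 6.97 (SD, n = 4 each), and each difference was smaller than the spread between libraries. Without female replicate 4 the female shares were 22.6% ± 5.28 for Gfra1, 40.4% ± 2.33 for Gfra2 and 37.1% ± 3.19 for Gfra3 (SD, n = 3), so that the sign of the difference turned for Gfra1 and Gfra3.

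Relative to Ret within the same library, a measure that needs no scaling between libraries, the co-receptor reads did not pass the test either. The log2 ratio of Gfra1 to Ret reads averaged -2.30 ± 0.20 in females and -2.37 ± 0.20 in males (SD, n = 4 each; exact permutation p = 0.657). Gfra2 to Ret averaged -1.96 ± 0.40 and -2.11 ± 0.09 (exact p = 0.600), and Gfra3 to Ret averaged -2.76 ± 0.69 and -3.06 ± 0.38 (exact p = 0.543). The adjusted p-value over the 3 two-sided tests was 0.657 for each, and the smallest p-value that 4 against 4 libraries allow is 0.0286. Gfra3 per exon length was 1.08 times Ret in female replicate 4 and 0.329 to 0.624 times Ret elsewhere. Without that library the difference in log2 ratio of females minus males was 0.01 for Gfra1, -0.03 for Gfra2 and -0.02 for Gfra3.

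**Figure D4:**
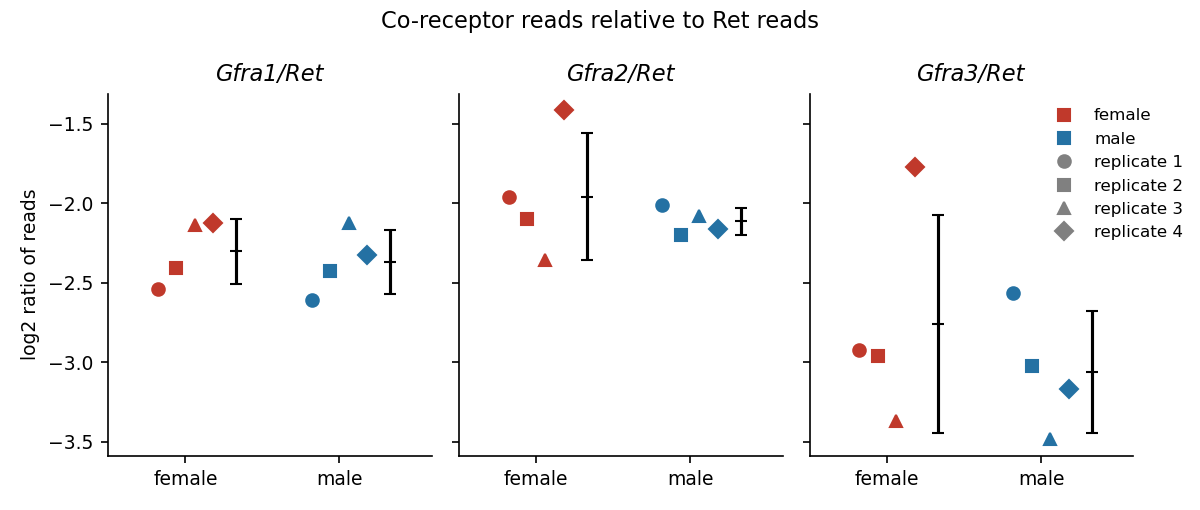
Log2 ratio of reads of Gfra1, Gfra2 and Gfra3 to reads of Ret on the y axis in each female and male library (points, 1 shape per replicate number), with the mean and SD at the right of each group. The sexes overlap in the 3 panels, and female replicate 4 has the highest ratio for Gfra2, at -1.41, and for Gfra3, at -1.78.

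The 33 other genes of the RET pathway, chosen from textbook knowledge, held the remaining ligands and co-receptors, further receptors for these ligands, adaptors that bind RET, and its inhibitors. Of these, 26 passed the filter, 0 were higher and 3 lower in females at an unadjusted p-value under 0.05, and 0 had an adjusted p-value under 0.05. The 3 genes were 11.5% of those tested, against 7.11% of all genes. The median log2 fold change was -0.16, with 6 genes positive and 20 negative, beside a median of 0.0034 over all genes. This lean rested on female replicate 4: the mean log2(CPM + 1) of the list was 5.12 in that library, 5.61 to 5.74 in the other females and 5.65 to 5.70 in the males, and without that library the median was -0.01, with 13 genes positive and 13 negative.

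Among the other ligands and receptors of the family, Pspn had 3 reads in each of 2 libraries and none in the others, and Gfral, the receptor of Gdf15 in the hindbrain, had 0 reads in every library. Gdf15 stayed under the floor, with at most 2 reads. Gfra4 had a log2 fold change of 0.26 ± 0.25 (SE) and the edgeR adjusted p-value was 0.823. Its log2 fold change was 0.04 without female replicate 4 and 0.43 without female replicate 2. Of the receptors that bind GDNF family ligands apart from GFRα or sort their complexes, Ncam1, a cell adhesion molecule, was at 451.5 ± 47.5 CPM in females and 398 ± 14.8 CPM in males (SD, n = 4 each). Sdc3, a heparan sulfate proteoglycan, was at 195 ± 81.1 and 129 ± 21.8 CPM, and its log2 fold change was 0.58 ± 0.28 (SE), adjusted p = 0.699 in edgeR. Sorl1, a sorting receptor for GDNF and GFRα1, was at 183 ± 76.5 and 207 ± 26.9 CPM. Female replicate 4 was its lowest library, at 71.6 CPM, and without it the log2 fold change turned from -0.19 to 0.08. Without the same library the unadjusted edgeR p-value was 0.00341 for Ncam1, whose log2 fold change was then 0.23, and 0.00438 for Sdc3, at 0.78, with adjusted p-values of 0.284 and 0.293. Each of these 3 genes shares 48 to 254 exon bases with a gene on the other strand.

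The 3 genes under the unadjusted threshold act downstream of RET. Shc1, an adaptor that binds the activated kinase, was at 225, 222, 196 and 130 CPM in female replicates 1 to 4 and at 298, 230, 247 and 270.5 CPM in male replicates 1 to 4. Spry2, a Sprouty inhibitor of receptor tyrosine kinase signalling, was at 42.3, 33.5, 33.7 and 40.1 CPM in females and at 43.0, 47.8, 45.4 and 53.0 CPM in males. Spry4, a second Sprouty gene, was at 33.4, 39.0, 44.0 and 19.0 CPM in females and at 48.8, 51.7, 47.9 and 47.0 CPM in males. In each of the 3 genes every female library lay below every male library. The sexes did not overlap, in either direction, for 5.52% of all genes, and the share in this direction alone was not counted. The 3 genes were picked by p-value from the same data, so their separation adds no further support. The nearest libraries were close together for Spry2, at 42.3 and 43.0 CPM, and for Shc1, at 225 and 230 CPM.

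The log2 fold changes were -0.45 ± 0.17 (SE) for Shc1, -0.36 ± 0.13 for Spry2 and -0.55 ± 0.22 for Spry4, with edgeR adjusted p-values of 0.656, 0.637 and 0.663. Sdc3 had the next smallest unadjusted p-value, 0.059, and was higher in females, with an unadjusted p-value under 0.05 in 7 of 18 alternatives. Among the adaptors and inhibitors the next genes were Ptpn11, which encodes the phosphatase that acts with these adaptors, at -0.37 ± 0.21, Dok5, a docking protein that RET phosphorylates, at 0.34 ± 0.23, and Grb2, the adaptor that links receptors to RAS, at -0.19 ± 0.14 (log2 fold change and SE). Without female replicate 4 the log2 fold changes were -0.30 for Shc1, -0.38 for Spry2, -0.35 for Spry4, -0.19 for Ptpn11 and 0.14 for Dok5. The number of genes under the unadjusted threshold was 7 without female replicate 4 (5 lower and 2 higher in females, the latter Ncam1 and Sdc3), 1 without male replicate 1, and 0 without male replicate 4 or with the glia marker level as a covariate. With that covariate the log2 fold changes were -0.30 for Shc1, -0.39 for Spry2 and -0.60 for Spry4 (unadjusted p = 0.243, 0.0606 and 0.091 in edgeR). The glia level did not overlap between the sexes, so this fit cannot separate sex from glia level.

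**Figure D5:**
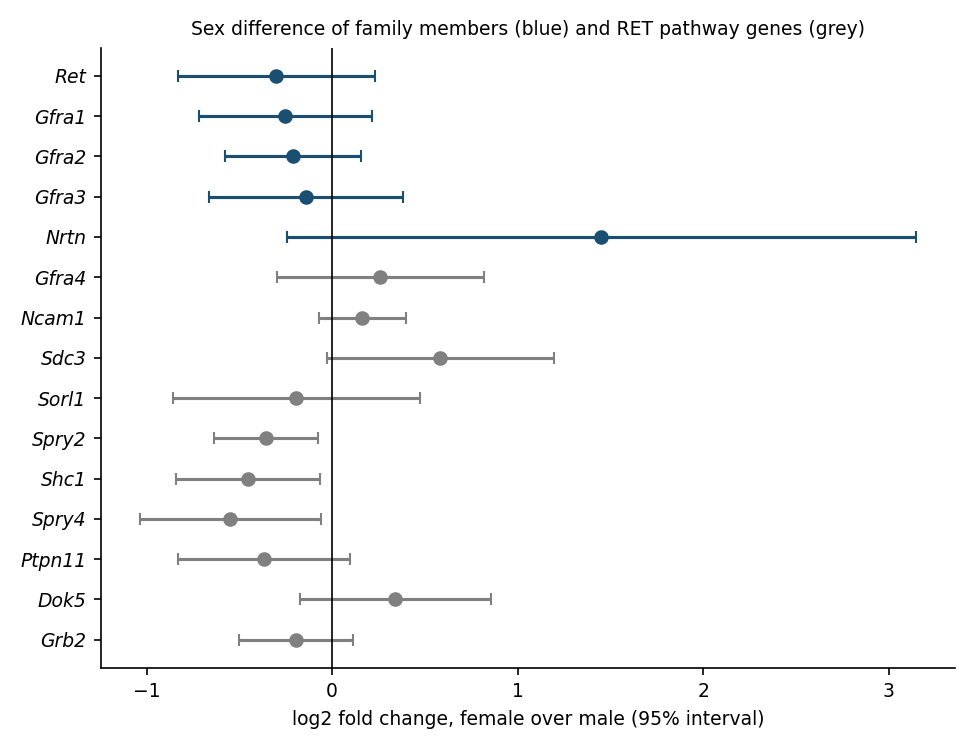
Log2 fold change of females over males (x axis) with its 95% interval from edgeR for the 5 members that passed the filter (blue) and the named genes of the RET pathway (grey). The intervals of the members all include 0, that of Nrtn being the widest, and those of Shc1, Spry2 and Spry4 lie below 0.

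Markers of other cells of the ganglion and of kinds of neuron were counted at the same unadjusted threshold, which 7.11% of all genes passed. No marker passed adjustment in the main edgeR test, while Sox10, Dcn, Sst and Adcyap1 did under both DESeq2 and the exact test of edgeR, and Sox10 also with the replicate block and without female replicate 1. In bulk samples, fewer cells of a type and less RNA per cell cannot be told apart. Summed levels cover every listed marker, also those that did not pass the expression filter. Of the glia markers, 4 of 9 tested were higher and 0 lower in females at an unadjusted p-value under 0.05, and their summed level was 10360 to 13490 CPM in females and 4104 to 9988 CPM in males. Sox10, a transcription factor of glia, was at 73.1 CPM in females and 23.3 CPM in males. Of the 7 fibroblast markers listed, 5 were tested and 4 of these were higher in females, with sums of 98.8 to 150 CPM and 44.6 to 84.4 CPM. Of the 6 macrophage markers, 3 were tested and 2 of these were higher, with sums of 6.05 to 18.9 CPM and 2.59 to 8.26 CPM. Without female replicate 4 these counts were 2 of 6 fibroblast and 1 of 3 macrophage markers (1 of 3 macrophage markers also without male replicate 1, 2 or 4), and the highest female macrophage sum was 12.5 CPM. Under the filter, mean CPM was lower in females than in males for Pdgfra (1.14 and 2.13) and Aif1 (0.343 and 0.70). It was higher for Col1a1 (9.54 and 0.402, with 32.7 in female replicate 4), C1qa (0.310 and 0.244) and Csf1r (1.03 and 0.309). The tested C1qb had a log2 fold change of -0.14. The 1 endothelial marker tested, Pecam1, did not pass. The 4 listed endothelial markers summed to 1.98 to 4.88 CPM in males and 2.71 to 5.03 CPM in females other than replicate 4. That library was at 14.2 CPM, of which the untested Cldn5 had 9.27 CPM.

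Among neuronal markers, 4 of 6 for peptidergic neurons were lower in females, with sums of 4776 to 6211 CPM in females and 5705 to 8161 CPM in males. That count was 1 without male replicate 1 and 2 without female replicate 3 or male replicate 4. Of 11 markers of nonpeptidergic neurons, where RET is best known, 1 (Sst) was higher in females and 0 lower, although 9 of the 11 estimates were negative, with a median log2 fold change of -0.30 and sums of 1359 to 2021 and 1791 to 2228 CPM. The count lower in females was 3 with the replicate block and 2 without female replicate 2. It was 1 without female replicate 4, male replicate 2 or male replicate 3, or with the length trend removed. Mrgprd, the defining receptor of a large nonpeptidergic class, was at 612 CPM in females and 647 CPM in males. Markers of C-low-threshold mechanoreceptors gave 0 calls of 3, with sums of 175 to 324 and 138 to 333 CPM. Of 9 markers of myelinated neurons 2 were higher in females, with sums of 9111 to 14330 and 6912 to 10980 CPM, a count that was 1 without female replicate 2 or 3 or male replicate 1 or 4, 3 without male replicate 3 and 4 without male replicate 2. Of 10 pan-neuronal markers 1 was higher, with sums of 15270 to 15700 CPM in males and 14270 to 15330 CPM in females other than replicate 4, which was at 19580 CPM and without which 1 was higher and 2 lower. With the glia marker level as a covariate, 0 of the 6 peptidergic and 0 of the 9 myelinated markers had an unadjusted p-value under 0.05 in edgeR, and in the other lists, leaving out the glia markers that make up the covariate, Sst and 1 fibroblast marker did. This covariate did not overlap between the sexes. Its mean log2(CPM + 1) was 7.88 to 8.11 in females and 6.68 to 7.80 in males. A fit with it cannot separate sex from glia level, and the part of either in the lost calls was not tested.

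Male replicate 1, which had the highest Ret, Gfra2 and Gfra3 of the males, also had the lowest glia sum, 4104 CPM, and the highest sums of peptidergic and nonpeptidergic markers, 8161 and 2228 CPM. With the glia marker level as a covariate, the log2 fold change was -0.18 for Ret, -0.35 for Gfra1, 0.01 for Gfra2, 0.47 for Gfra3 and 3.06 for Nrtn. The unadjusted edgeR p-values were 0.0612 for Gfra3 and 0.0241 for Nrtn, and the adjusted p-value was 1.0 for each of the 5 genes. Because the covariate did not overlap between the sexes, this fit cannot separate sex from glia level. The part of the cell mixture in the member levels was not tested further.

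Finally, the genes whose level over the 8 libraries was most like that of each receptor were sought among 9073 genes with a mean of at least 10 CPM, by Pearson's r of log2(CPM + 1), as a description. For Ret they were Abr (r = 0.997) and Kbtbd2 (r = 0.995), but 587 genes had r above 0.95 with Ret, and without female replicate 4 the values were 0.954 and 0.894. For Gfra1 they were Ss18l1 (0.994) and Tbcd (0.991), which had 0.917 and 0.890 without that library. For Gfra2 they were Prkx (0.996) and Gnao1 (0.991), with 0.991 and 0.981 without it. For Gfra3 they were St6galnac5 (0.956) and Paqr5 (0.949), with 0.958 and 0.949 without it, and only 1 gene exceeded 0.95. The values rest on the same 8 libraries, which differ in depth, length trend and marker levels, and the part of these in the correlations was not tested.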

How the data were processed

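RNA of sorted WGA+ DRG neurons was amplified with the SMART-seq2 protocol, which primes cDNA with oligo-dT, and sequenced as single reads. The deposited values are raw read counts per gene, which the authors made with TopHat2 on mm9 and HTSeq-count. Versions, annotation and strand option are not given in the sources used here. Reads carried no molecular identifiers. The 5 summary rows per library stayed out of library sizes and tests: reads outside features were 57.8% to 60.5% and ambiguous reads 0.145% to 0.169% of uniquely aligned reads.

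Exon lengths and positions came from GENCODE M1 (NCBIM37), in which 21627 of 22609 symbols matched (95.7%). Counts were tested with edgeR 4.0.16 in R 4.3.3 (quasi-likelihood test, TMM, default expression filter, sex alone as in the study, Benjamini-Hochberg over 12518 genes), after a check on simulated data. For 200 genes changed 2-fold, 119 were recovered with 14 false calls among 12393 genes, and for 4-fold changes 198 with 20 false calls among 12412. Genes under the filter and ratios to Ret (pseudocount 0.5 read) had two-sided exact permutation tests over 70 labelings. Per the labels and the study's methods, 4 animals of each sex gave 4 samples, each of lumbar ganglia from both sides; no label names the animal of a library. Libraries of one sex differed by at least 2.89 in chi-square per degree of freedom, so none was merged. Alternatives used DESeq2 1.42.0, limma 3.58.1 (voom), the edgeR exact test, other scalings and filters, a glia covariate, a block by replicate number, each library left out, and a length-trend correction chosen after seeing the data.

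The genes named were all 7 members, the other family genes and linked receptors, the 6 other RET pathway genes of smallest p-value, the defining and smallest-p marker genes, and the 2 genes most like each receptor. The members and lists were chosen with earlier results of these data known. Python 3.11.15, scipy 1.17.1 and matplotlib 3.10.9 were used for the rest.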

Additional observations from a re-analysis of the deposited data

Results flagged for a closer look

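Ret in female replicate 4 was at 8.65 on the log2(CPM + 1) scale, and its gap to the nearest female library was 0.920 of the female range, above Dixon's critical value of 0.829 for 4 samples. Gdnf in male replicate 2 was at 0.375 on the same scale, which is 2 reads, while the other males had 0 reads. With the other males tied at 0, any read would have given this, so the Gdnf value says nothing beyond the 2 reads. In all 21 groups were tested in this way; chance gives about 1 in 20 for values without ties, a rate that does not hold for the ligand counts.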

How the results depend on the processing

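No member had an adjusted p-value under 0.05 in any of the 18 alternatives to the edgeR fit (17 for Nrtn, which the stricter filter removed). The lowest were 0.378 for Nrtn, 0.582 for Gfra2, 0.635 for Ret, 0.679 for Gfra1 and 0.809 for Gfra3. The log2 fold change ranged from -0.41 to -0.07 for Ret, -0.40 to -0.06 for Gfra1, -0.31 to 0.01 for Gfra2, -0.31 to 0.47 for Gfra3 and 1.05 to 3.06 for Nrtn. The sign turned with the glia covariate for Gfra2 (0.0109) and Gfra3 (0.47), and for Gfra3 without male replicate 1; leaving out each library in turn gave -0.31 to 0.14 for Gfra3. In the same way the differences in log2 ratio to Ret, females minus males, ranged from -0.0129 to 0.149 for Gfra1, -0.0274 to 0.288 for Gfra2 and -0.0247 to 0.507 for Gfra3. The Gdnf difference ranged from -0.0164 to 0.112 CPM. These signs turned without male replicate 1 for Gfra1, without female replicate 4 for Gfra2 and Gfra3, and without female replicate 1 for Gdnf. Over all genes, adjusted calls numbered 11, against 48 with DESeq2, 47 with the edgeR exact test, 5 with the glia covariate and 7 to 84 with a library left out, the extremes being male replicate 4 and female replicate 1. Unadjusted calls numbered 890, against 310 with the glia covariate, 587 without male replicate 1 and 1453 without female replicate 4. Other RET pathway genes under an unadjusted 0.05 numbered 3, against 0 with the glia covariate, 5 with the length trend removed and 0 to 7 with a library left out; 0 passed adjustment in each. The cause of these shifts was not tested, and the glia covariate did not overlap between the sexes. With the replicate block adjusted calls numbered 6 and no member's call changed; same-numbered libraries correlated at 0.103, -0.117, 0.151 and 0.0101, so the numbers did not pair them, and 4 pairs cannot give a sign-flip p-value below 0.125. Depth limits Gdnf and Artn, under 3 reads in every library, and Nrtn, with 1 to 19 reads.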
